A study of Caenorhabditis elegans with 4 samples.

Results

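Chromosome IV of Caenorhabditis elegans carried 1262 of the 7964 regions at which the transcription factor UNC-62 was found bound in embryos. These are all regions of the list deposited for the whole series that lie on that chromosome, so the choice used position alone and no measured value. Binding was mapped by chromatin immunoprecipitation and sequencing (ChIP-seq) in the strain OP600, which carries the unc119(ed3) mutation and the transgene wgIs600. The transgene holds unc-62 joined to the tags TY1, EGFP and FLAG, with a copy of unc119 beside it, and was brought in by bombardment. All 4 samples, 2 of UNC-62 ChIP and 2 of Input DNA, were hermaphrodite embryos of this genotype grown at 20 °C and fixed in 2% formaldehyde, and anti-GFP antibodies collected the tagged protein. The genotype names no change in the native unc-62 gene, and only the tagged protein was mapped. Embryos were used whole, so binding in different cell types is summed. Lists exist here for ChIP replicate 1 (1256 regions on IV), ChIP replicate 2 (528 regions on IV) and the series. Values of the Input samples were not analysed here.

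UNC-62 is a homeodomain protein of the MEIS class, the worm relative of Homothorax in flies. Proteins of this class bind DNA together with PBC homeodomain proteins, such as CEH-20 in the worm, and with Hox proteins, and they help to set the site preference of these complexes. In the worm, UNC-62 is known for roles in embryonic patterning, in the migration of the Q neuroblasts, in the epidermis and, in adults, in the control of yolk protein genes in the intestine. Chromosome IV is an autosome whose centre recombines little and whose arms recombine often. It carries nearly all genes of the piRNA class, which make small RNAs that silence foreign transcripts in the germ line. In the RefSeq table of assembly WBcel235, 14714 of 15363 piRNA genes are on IV, along with 3281 of the 19971 protein-coding genes on the 6 chromosomes.

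Regions are named by position on the WormBase WS220 build. The gene table is on another build, so no gene was assigned to a region and no sequence was read. Each region has a deposited value that was read as a q-value, a p-value corrected for the number of regions. The smaller it is, the stronger a region is called. The q-values depend on sequencing depth, which is unknown, as well as on enrichment, and ranks are taken within a list. Where q-values of the replicates are set side by side, depth and enrichment cannot be told apart. All 95% intervals are exact and cover counting error only, since neighbouring regions are not independent and all regions of a list share its libraries. For the same reason no test was made between chromosomes or between stretches of IV.

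The strongest binding on IV was at a pair of places in the right part of the chromosome. The first region, IV 14032402 to 14034890 (2489 bp), had a q-value listed as 0 in the series list, 1.44e-247 in replicate 1 and 4.19e-120 in replicate 2. The second, IV 13695430 to 13696438 (1009 bp), had q-values of 1.16e-295 in the series list, 1.98e-232 in replicate 1 and 2.25e-132 in replicate 2. These were the strongest regions of IV in all 3 lists, in the order given in the series list and replicate 1 and in the opposite order in replicate 2. The first stood alone, with 6198 bp to its left neighbour and 9003 bp to its right one. The second had a neighbour on each side, at 445 and 305 bp.

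The third and the fourth regions lay beside the second. IV 13703846 to 13704544 (699 bp) had q-values of 1.29e-154 in the series list, 2.62e-119 in replicate 1 and 1.57e-73 in replicate 2. IV 13699078 to 13699923 (846 bp) had 4.70e-149, 2.35e-108 and 5.45e-51 in the same order. The ninth, IV 13718816 to 13719432 (617 bp, series q-value 5.83e-100), and the thirteenth, IV 13716715 to 13717179 (465 bp, series q-value 1.10e-89), followed a little to the right. Thus 5 of the 20 strongest regions fell within 24.0 kb, from 13695430 to 13719432. This stretch was picked out after the values were seen, as the strongest regions under 50 kb from another of the 20.

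The stretch held 12 series regions, 12 regions of replicate 1 and 10 of replicate 2. They covered 26.7% of it in the series list, 23.8% in replicate 1 and 21.6% in replicate 2. Of the 12 series regions, 11 overlapped regions in both replicates and 1, IV 13702621 to 13702985, in replicate 1 only. Strong and weak regions were mixed within it. Between the strong ones lay, for example, IV 13696744 to 13697066 with a series q-value of 3.86e-07 and IV 13701584 to 13701902 with 2.63e-05, and 2 of intermediate strength, IV 13707714 to 13708336 with 3.55e-39 and IV 13710340 to 13710736 with 5.72e-43.

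**Figure D1:**
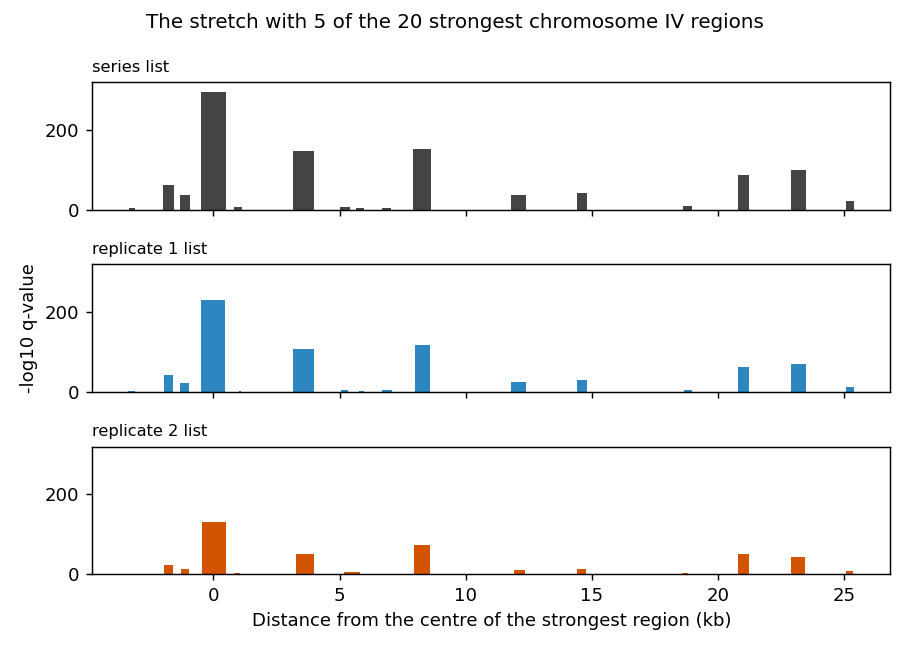
Distance from the centre of the region IV 13695430 to 13696438 is on the x axis (kb) and the −log10 q-value on the y axis, with 1 panel for each list; each bar spans a region, and a margin of 5 kb on each side is included. The same 5 bars are the highest in all 3 lists, and the bars of replicate 2 are lower than those of replicate 1 at each of them.

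A second, shorter run joined 2 of the 20 strongest regions near the right end. IV 16497787 to 16498592 (806 bp), the seventh, had q-values of 2.06e-125 in the series list, 4.07e-88 in replicate 1 and 3.40e-43 in replicate 2. IV 16491162 to 16492870 (1709 bp), the fifteenth, had 1.46e-82, 2.63e-59 and 9.61e-25. Including these, the 20 strongest regions were spread unevenly. There were 9 in the central 50% of the chromosome, 2 in the left 25% and 9 in the right 25%. Of the 9 on the right, 7 lay in this run or in the stretch of 24.0 kb, so they are not separate places. The 2 on the left were the fifth, IV 3231488 to 3234738, and the sixth, IV 1107008 to 1108509 (1502 bp, series q-value 3.02e-143).

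The other strong regions in the centre included IV 11068210 to 11068725 (516 bp), the eighth, with q-values of 4.10e-103 in the series list, 1.18e-76 in replicate 1 and 4.92e-66 in replicate 2. IV 5810927 to 5811548 (622 bp), the eleventh, had 1.43e-92, 3.14e-65 and 1.40e-44. IV 8431337 to 8433149 (1813 bp), the twelfth, had 5.83e-92, 4.14e-58 and 1.90e-33. The order of strength was thus much alike in the replicates, although replicate 2 had larger q-values. Of the 20, 19 were among the 20 strongest of replicate 1, 16 among the 20 strongest of replicate 2 and 15 among both, and all 20 overlapped regions in both replicates. The twentieth, IV 17269605 to 17270199 (595 bp), still had 1.20e-68 in the series list, 3.47e-56 in replicate 1 and 5.95e-28 in replicate 2.

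The 3 largest departures from this order were at regions that a replicate list gave in pieces. The fifth region, IV 3231488 to 3234738, is the widest on IV at 3251 bp and had a q-value of 3.17e-104 in replicate 1, rank 5 there. Replicate 2 listed 3 regions in its place, of 362, 1342 and 442 bp, with q-values of 2.21e-09, 1.61e-22 and 0.000754, and the strongest ranked 27. The region of rank 10, IV 10935247 to 10936498 (1252 bp, series q-value 2.51e-99), was split in replicate 1 into regions of 438 and 580 bp, with q-values of 1.31e-33 and 3.02e-32. Its rank in replicate 1, taken from the stronger piece, was 43. In replicate 2 it was a single region of 1204 bp with a q-value of 1.16e-37 and ranked 11. Whether the split accounts for the difference in rank was not tested. This region of rank 10 was the only one of the 20 whose q-value was smaller in replicate 2. The sixteenth, IV 13029385 to 13031505 (2121 bp), was split in replicate 2 into 1071 and 400 bp and ranked 36 there, against 18 in replicate 1.

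**Figure D2:**
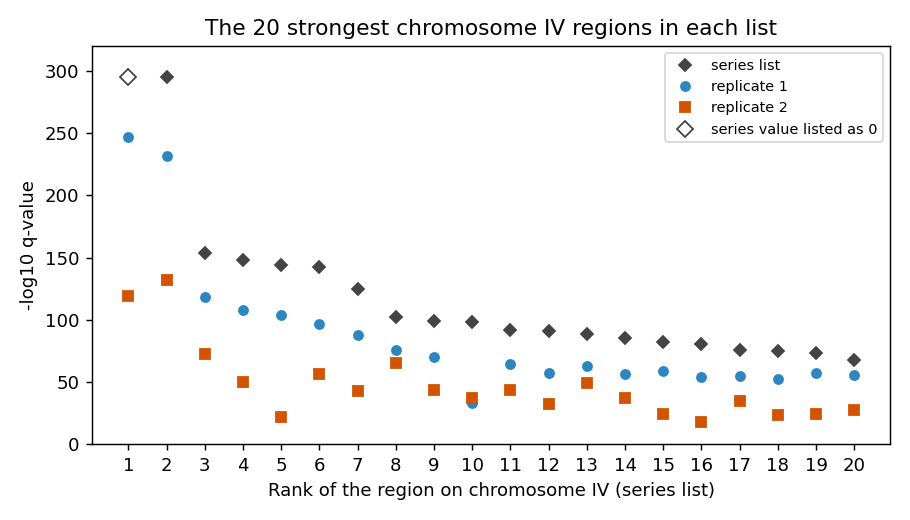
The −log10 q-value (y axis) of the 20 strongest chromosome IV regions, ordered by their rank in the series list (x axis), is drawn for the series list, replicate 1 and replicate 2. A value listed as 0 is drawn open, at the smallest value above 0 in that list; the first 2 regions stand apart in each list, and replicate 2 lies below replicate 1 for 19 of the 20.

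Wide regions were few. Of the 1262 regions, 30 (2.38%) were 1000 bp or wider, against 2.69% on the other 5 chromosomes. Of these 30, 27 overlapped regions in both replicates and 3 in replicate 1 only. After IV 3231488 to 3234738 (3251 bp), IV 14032402 to 14034890 (2489 bp) and IV 13029385 to 13031505 (2121 bp), the next in width were IV 14611780 to 14613666 (1887 bp) and IV 8431337 to 8433149 (1813 bp). Width and strength went together over all regions of IV (Spearman rho of width and −log10 q-value 0.73, across 1262 regions of 1 list). Both were derived from the same reads, so they are not separate measures.

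Over all of IV, the median width was 310 bp (95% interval 298 to 319 bp), with quartiles of 212 and 422 bp. It was 275 bp in the replicate 1 list and 304 bp in the replicate 2 list. At the other extreme, 26 regions (2.06%) were under 20 bp wide, down to 2 bp, against 1.55% on the other chromosomes. None of these 26 overlapped regions in both replicates, 8 overlapped replicate 1 only and 18 overlapped neither. The strongest of them was IV 15756062 to 15756080 (19 bp), with a series q-value of 1.20e-06 and no region in either replicate list.

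Most regions of IV were found in at least 1 replicate list, but most were not found in both. Of the 1262, 484 overlapped a region in each replicate by at least 1 bp (38.4%, 95% interval 35.7 to 41.1%), against 36.7% over all chromosomes. A further 573 were in replicate 1 only (45.4%, 95% interval 42.6 to 48.2%, against 47.9%), 27 in replicate 2 only (2.14%, 95% interval 1.41 to 3.10%, against 1.24%) and 178 in neither (14.1%, 95% interval 12.2 to 16.1%, against 14.2%). These shares, with the exception of replicate 2 only, lie near those of the whole list. For replicate 2 only, the other chromosomes ranged singly from 0.348% on V to 1.50% on X. The interval of IV overlapped those of X (0.951 to 2.24%), III (0.851 to 2.19%) and II (0.661 to 1.94%), but not those of I and V. The making of the series list is not given in the sources used here, so the overlap is a description and not independent support. With all 3 lists held to q-values under 0.001, the share in neither replicate on IV was 28.0%. The replicate 1 list, which reaches 0.00998 on IV, loses its weakest regions under that limit.

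Support went with strength and width, in part by construction, since a wide region more easily meets another by 1 bp. The series list may also share reads with the replicate lists, so strength and support may not be separate measures. In the 484 regions with both replicates the median series q-value was 4.18e-16 and the median width 403 bp, and these regions made up 54.0% of the covered base pairs. Those in replicate 1 only had a median of 4.29e-06 and 275 bp, those in replicate 2 only 7.20e-06 and 199 bp, and those in neither 0.000273 and 133 bp. On the other 5 chromosomes the regions with both replicates were somewhat wider, at a median of 440 bp, and those in replicate 1 only were equally wide, at 275 bp. Those in neither had a median of 173 bp there, against 133 bp on IV, and those in replicate 2 only 194 bp, against 199 bp on IV. The other 5 chromosomes include X, and widths by class were not computed without it. Over all classes the median width was 350 bp on X, 310 bp on IV and 304 bp on the other 4 autosomes. With the regions of IV cut into 10 steps of strength, all 127 of the strongest step were found in both replicates (100%, 95% interval 97.1 to 100%). The share was 94.5% in step 2, 83.3% in step 3, 51.6% in step 4, 29.4% in step 5 and 4.76% in step 7. In step 9 it was 0 of 126, with an upper limit of 2.89%, and in step 10 it was 1 of 126.

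**Figure D3:**
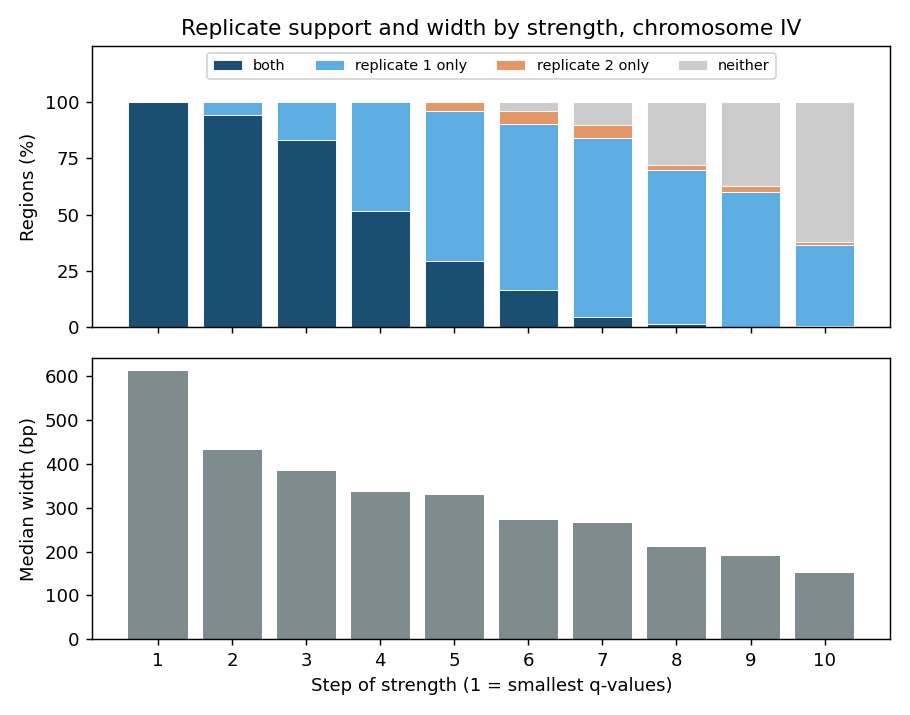
The upper panel gives the percentage of chromosome IV regions overlapped in both replicates, replicate 1 only, replicate 2 only or neither, and the lower panel the median width (bp), for 10 steps of strength in the series list (x axis, 126 or 127 regions each). Support in both falls from 100% to under 1%, and the median width falls from 611 bp in step 1 to 152 bp in step 10.

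No region of the strongest step lacked a replicate, and the first that did were in replicate 1 only. These were IV 1857821 to 1858399 (579 bp), with q-values of 1.09e-19 in the series list and 3.33e-17 in replicate 1, and IV 8112235 to 8113126 (892 bp), with 1.14e-18 and 1.40e-11. They ranked 194 and 203 of the 1262 on IV. The next 3, with series q-values of 2.05e-18 to 1.91e-16, were IV 2998404 to 2999466, IV 390372 to 390664 and IV 3826730 to 3827067. The first region in replicate 2 only, IV 14729297 to 14729504 (208 bp), ranked 564, with q-values of 4.36e-08 in the series list and 1.37e-05 in replicate 2. The next 4 were IV 6327224 to 6327689, IV 3385381 to 3385664, IV 5537873 to 5538071 and IV 358817 to 359301, with series q-values of 7.35e-08 to 1.50e-07. The first region in neither list, IV 14821909 to 14822028 (120 bp, series q-value 9.23e-07), ranked 698. It was followed by IV 7133364 to 7133433 (70 bp), IV 15756062 to 15756080 (19 bp), IV 13521985 to 13522003 (19 bp) and IV 6133837 to 6133943 (107 bp).

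The replicate lists were also set against each other directly. On IV, 489 of the 528 regions of replicate 2 met a region of replicate 1 (92.6%, 95% interval 90.04 to 94.7%), against 94.8% over all chromosomes. In the other direction, 487 of the 1256 regions of replicate 1 met a region of replicate 2 (38.8%, 95% interval 36.1 to 41.5%), against 37.9% over all chromosomes. The lists end at unlike limits, with largest q-values on IV of 0.00998 in replicate 1 and 0.000958 in replicate 2. With both held to q-values under 0.001, 88.3% of replicate 2 met replicate 1 and 52.3% of replicate 1 met replicate 2. With the 528 strongest regions of each list the shares were 75.9% and 75.2%, which equal list lengths bring together by construction. Where regions of the replicates overlapped, their midpoints were mostly close, which the choice of pairs by overlap itself favours. The midpoints of the 489 pairs lay a median of 28.5 bp apart, and 421 pairs (86.1%, 95% interval 82.7 to 89.0%) lay within 100 bp. The replicate 1 region was the wider one in 364 pairs (74.4%) and had the smaller q-value in 425 (86.9%). Over these pairs, Spearman's rho of the −log10 q-values was 0.76 and Pearson's r was 0.91, beside 0.74 and 0.85 over the 2487 pairs of the other chromosomes. These describe regions that are present in both lists, and some pairs share a replicate 1 region.

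**Figure D4:**
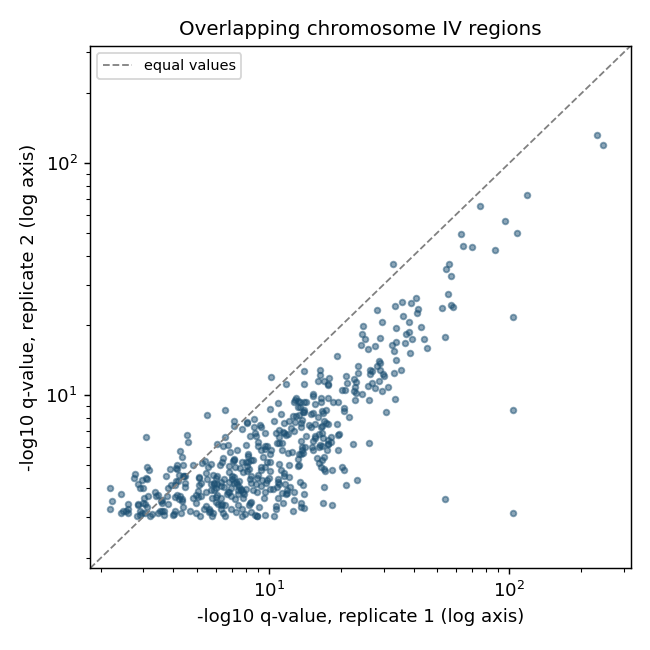
Each of the 489 points is a replicate 2 region on chromosome IV and the strongest replicate 1 region it overlaps, with the −log10 q-value in replicate 1 on the x axis and in replicate 2 on the y axis, both log axes. Most points, 425, lie below the dashed line of equal values; the 3 points in a column at a high replicate 1 value are the 3 pieces of IV 3231488 to 3234738.

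At 1 bp of overlap, regions found by replicate 2 alone had a higher share on IV than on the other chromosomes, and the order depended on how a match was defined. Of the replicate 2 regions on IV, 39 had no match in replicate 1 (7.39%, 95% interval 5.30 to 9.96%), and the other chromosomes had 3.35% to 5.59%. With replicate 1 also held to q-values under 0.001, 62 had none (11.7%, 95% interval 9.12 to 14.8%), and the others had 6.07% to 7.64%. Under either limit the interval of IV overlapped that of III, which was the next highest (3.80 to 7.88% and 5.53 to 10.2%). When a match needed 50% reciprocal overlap, 97 on IV (18.4%) and 120 on X (18.1%) had none. When it needed midpoints within 100 bp, 107 on IV (20.3%) and 139 on X (20.997%) had none, so that the share was higher on X. The 39 were weak (median q-value 0.000391) and narrow (median width 144 bp), and 31 of them overlapped a series region.

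The 5 strongest of these 39 were IV 7632583 to 7632867 (q-value 2.48e-07 in replicate 2), IV 14729291 to 14729488 (1.37e-05), IV 11569429 to 11569813 (1.48e-05), IV 6983514 to 6983777 (2.01e-05) and IV 5537882 to 5537998 (3.78e-05). The first lies in a series region with a q-value of 1.86e-16 that a replicate 1 region also overlaps, at a place where the replicate regions do not meet. There were 3 such series regions on IV among the 484. Among the 769 unmatched regions of replicate 1, the median q-value was 0.000708 and the median width 215 bp. They include regions with q-values above 0.001, which the replicate 2 list does not reach. The strongest were IV 2998404 to 2999449 (2.85e-17), IV 1857848 to 1858418 (3.33e-17), IV 11871092 to 11872182 (1.32e-14), IV 390365 to 390664 (5.19e-14) and IV 3826732 to 3827069 (8.73e-13).

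Along the chromosome, regions were densest in the middle and fell off towards the right end. The length of IV was taken as 17.5 Mb, the highest region end in any list. Cut into 10 equal parts from left to right, it held 128, 124 and 136 regions in parts 1 to 3, between 145 and 154 in parts 4 to 7, and 113, 90 and 74 in parts 8 to 10. Per Mb the highest of the 10 was 88.1 (95% interval 74.8 to 103.2) in part 7 and the lowest 42.3 (95% interval 33.3 to 53.2) in part 10. These are extremes picked out after the values were seen, and no test was made of them. The left 25% of the length held 322 regions (73.7 per Mb) and the right 25% held 214 (48.98 per Mb). The higher of these was 1.50 times the lower, a ratio that the other chromosomes exceeded in 1 case (II, 1.76), and that ranged from 1.08 to 1.26 in the rest.

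The balance of left and right varied with the list and the class of region, and these differences were not tested. The replicate 1 list had 321 regions in the left 25% and 207 in the right 25%, whereas the replicate 2 list had 117 and 101. Among regions supported by both replicates there were 107 and 93, and the left share of 53.5% had an interval (46.3 to 60.6%) that includes 50%. Among the 126 strongest regions of IV there were 27 at either end. In the stronger 50% of the series list there were 148 on the left and 107 on the right. The left share there was 58.0% (95% interval 51.7 to 64.2%). With regions under 2 kb apart merged, there were 222 and 160, a left share of 58.1% (53.0 to 63.1%). Neither of these 2 intervals includes 50%. The fraction of regions found in both replicates was 33.2% in the left 25% (95% interval 28.1 to 38.7%), 39.1% in the centre (35.6 to 42.8%) and 43.5% in the right 25% (36.7 to 50.4%). Of the 10 parts, it was lowest in part 1 (32.8%) and highest in part 8 (47.8%). Part 8 also held 7 of the 20 strongest regions.

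**Figure D5:**
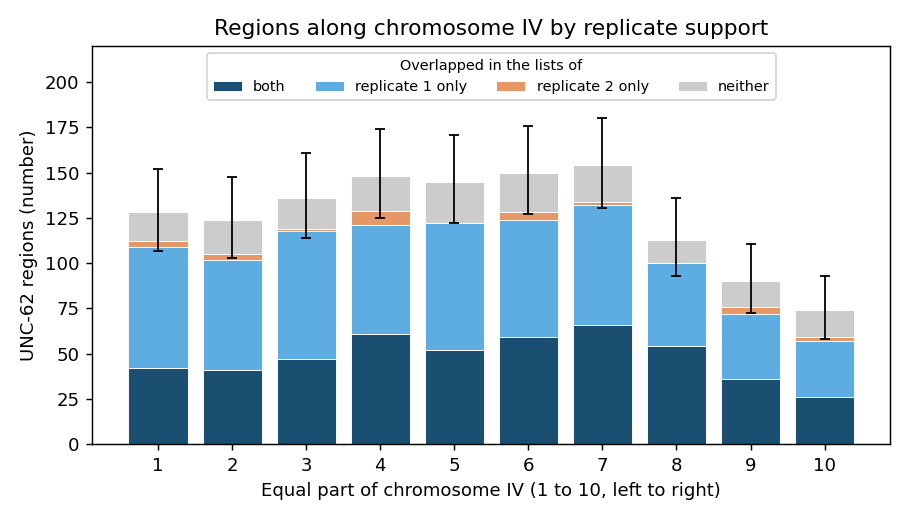
The number of series regions (y axis) in 10 equal parts of chromosome IV from left to right (x axis) is stacked by overlap with both replicates, replicate 1 only, replicate 2 only or neither; error bars are exact 95% Poisson intervals of the total. Totals stay between 124 and 154 in parts 1 to 7 and fall to 74 in part 10; the class found in both falls from 66 in part 7 to 26 in part 10.

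Spacing was uneven, and 656 of the 1262 regions had no neighbour fewer than 2 kb away. The median distance from the edge of a region to the edge of the next was 5649 bp, with quartiles of 1543 and 17728 bp. The shortest was 201 bp. No list had neighbours closer than this on any chromosome. A neighbour fewer than 2 kb away was found for 606 regions (48.0%, 95% interval 45.2 to 50.8%), against 50.3% over all chromosomes. Joined at that distance, the 1262 regions formed 656 single regions, 151 pairs and 83 groups of 3 or more, of which 14 had 5 or more. In the strongest step, 79 of 127 regions had such a neighbour (62.2%, 95% interval 53.2 to 70.7%), and in the weakest 51 of 126 (40.5%, 31.8 to 49.6%). A region's strength said little of its neighbour's: the Spearman rho of −log10 q-values was 0.06 over the 372 pairs of neighbours fewer than 2 kb apart.

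The largest group, IV 9609771 to 9619570, was 9.80 kb long and held 8 regions covering 47.3% of it. Replicate 1 covered 42.7% and replicate 2 covered 12.2%, and its strongest region, IV 9617244 to 9618481, had a series q-value of 3.72e-33. Next came IV 6983510 to 6991519, with 7 regions covering 49.4%. Here the replicates were about equal, at 36.3% and 39.3%. Then followed IV 16396632 to 16403576 and IV 3854674 to 3862071, with 6 regions each, covering 43.0% and 26.9%. There were 10 groups of 5 regions. Among these, IV 16489883 to 16498592, which contains the pair of strong regions near the right end, had the most covered base pairs (48.99% of its length).

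By covered base pairs, 2 further groups were among the first 5. IV 13025508 to 13031505 held 3 regions covering 64.7%, all 3 of them found in both replicates. IV 560187 to 565456 held 5 regions covering 64.8%, and the replicate lists differed entirely there. Replicate 1 listed 6 regions covering 48.6%, and replicate 2 listed 0. The replicate 2 list is shorter and ends at a smaller q-value, so absence from it does not show absence of binding. The strongest region of this group, IV 562318 to 563238, had a series q-value of 2.71e-13 and ranked 317 on IV.

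Long stretches without any region were most frequent towards the right end. Of 67 gaps of 50 kb or more, 30 were centred in the right 25%, 18 in the central 50% and 19 in the left 25%, and together they made up 30.2% of the chromosome. The longest ran from 16181294 to 16368236 (186.9 kb), followed by 15756081 to 15931917 (175.8 kb), 12843234 to 12996818 (153.6 kb), 16504100 to 16656212 (152.1 kb) and 5209704 to 5333706 (124.0 kb). Replicate 2 had 0 regions in each of these 5. Replicate 1 had 4 in all, with q-values of 0.00102 to 0.00812, above the limit of the series list. The second gap starts at the edge of IV 15756062 to 15756080, the region of 19 bp found in neither replicate list. That region has a gap of 58946 bp on its other side. Without it the 2 gaps would join into the longest on IV, so the order given rests on this region. The stretch from 16504100 begins 5.51 kb to the right of the group at 16489883 to 16498592, so in this case a dense and an empty stretch lie close together. Distances between other groups and gaps were not computed.

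How IV compared with the other chromosomes depended on the scale and on which chromosomes were pooled. It held 72.2 regions per Mb (95% interval 68.3 to 76.3), the other 4 autosomes together 79.5 (77.4 to 81.7) and the other 5 chromosomes together 81.1 (79.2 to 83.1). Singly, V was lower at 54.9 per Mb, and II, X, I and III were higher at 83.4, 86.98, 93.1 and 97.7. Its covered share was 2.53%, against 2.86% on the other 4 autosomes. Per 100 protein-coding genes in the WBcel235 table, IV had 38.5 regions, the other 4 autosomes 37.0 and the other 5 chromosomes 40.2. Single chromosomes ranged widely on this scale, from 23.0 on V to 56.3 on X, with 36.9 on II, 48.5 on I and 51.0 on III, and IV was the third lowest of the 6. In the central 50% of its length IV held 57.5% of its regions (95% interval 54.7 to 60.3%). The shares on the other autosomes were 59.0 to 66.9%, and the interval of IV overlapped those of I (56.3 to 61.5%), II (60.2 to 65.6%) and III (58.6 to 63.9%). On X the share was 51.98% (49.5 to 54.5%). When the whole series list was ranked by q-value, 111 regions of IV (8.80%, 95% interval 7.29 to 10.5%) were in its first 10%. The other chromosomes together had 10.2% of theirs there (9.51 to 10.97%), and the intervals overlap.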

How the data were processed

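UNC-62 ChIP-seq regions were available for ChIP replicates 1 and 2 and for the whole series, and chromosome IV was selected by the chromosome column. Regions were called with PeakSeq on WormBase WS220, per the file headers and the deposited source column. For the aligner, read filters, PeakSeq version and the making of the series list, nothing is given in the sources used here. The deposited value of each region has no name and was read as a q-value. Its product with the number in the region's name never fell along those numbers (0 falls in each list), while the value itself fell 2604, 4135 and 1321 times in the series, replicate 1 and replicate 2 lists. A p-value corrected by rank behaves so, but the reading remains an assumption. Depth is unknown. The labels do not say whether the replicates are separate cultures.

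Regions were called shared at 1 bp of overlap, and gaps are edge to edge. For −log10 values, 0 was replaced by the smallest positive q-value of the same list. Intervals are 95% Clopper-Pearson for shares, Poisson for numbers and order-statistic for medians (Python 3.11.15, scipy 1.17.1). The functions were tested on simulated lists. Members and rules were chosen with earlier results of these data known. Named regions are the 20 strongest, the 5 widest, the 5 strongest of each support class and of each replicate without a match, the 5 largest groups by number (ties by covered base pairs) and by covered base pairs, and the 5 longest gaps. Gene assignment and motif counts were not run, because no genome or annotation on WS220 was used here.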

Additional observations from a re-analysis of the deposited data

How the results depend on the processing

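Of 50 values under alternatives, 16 stayed within the 95% interval of the reported value and 34 did not. The central share stayed within it under all 4 alternatives run (57.3 to 58.7%). With 50% reciprocal overlap, support in both replicates was 33.6% and in neither 19.9%, 34.3% of replicate 1 was found in replicate 2 and 81.6% of replicate 2 in replicate 1. With midpoints within 100 bp, these were 33.5%, 16.6%, 33.5% and 79.7%, and support in replicate 2 only was 3.33%. With all lists under 0.001, support by replicate 1 alone was 31.5%, by replicate 2 alone 4.12% and by neither 28.0%, and the overlaps between replicates were 52.3% and 88.3%. In the stronger 50% of each list, these supports were 50.7%, 0.495% and 10.7%. Equal numbers of regions gave overlaps of 75.2% and 75.9%. Leaving out a replicate, the share of series regions found in the other ranged from 40.5% without replicate 1 to 83.8% without replicate 2, against 85.9% in at least 1.

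The density was 30.2 regions per Mb in the replicate 2 list, 34.7 in the stronger 50% and 50.9 with regions under 2 kb apart merged. The covered share was 2.23% in replicate 1, 1.05% in replicate 2, 1.66% in the stronger 50% and 4.50% merged, which counts the gaps. A neighbour was found for 31.8% within 1 kb, 69.3% within 5 kb, 32.0% in the replicate 2 list and 36.1% in the stronger 50%. The median width was 275 bp in replicate 1. The share on the left among regions of the left and right 25%, added after seeing the data, was 60.1% and fell to 53.7% in the replicate 2 list. It stayed within the interval at 60.8% in replicate 1, 58.0% in the stronger 50% and 58.1% merged. Fewer regions, stricter matching or another distance lower or raise most of these by construction; for the replicate 2 left share the cause was not tested. No paired analysis was possible because Input lists were not used, so no groups were compared. Gene and motif alternatives were not run. Depth is unknown, so its limit on replicate 2 cannot be stated.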
